A study of Mus musculus with 6 samples.

Results

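The 10 rows described here took an outsized part of the reads in a ribosome profiling table of mouse hearts. They are Lars2, Tmem38b, Rn18s-rs5, n-R5-8s1, Peak1, Sspn, Itga9, Zc3h7a, Camk1d and Gphn, 10 of 49585 gene rows, and they were chosen by name for their totals of exon or intron reads over all 6 libraries. How large those totals are is therefore a description. Hearts of male mice aged 8 or 9 weeks were compared in 2 groups of 3 libraries each. The PG group (partial gravity) lived at 0.167 g, produced by spinning habitat cages at 31 rpm on a 15 cm radius in the MARS-S centrifuge, and the GC group (ground control) lived at 1 g. The labels name the GC strain as C57BL/6J and give no allele, transgene or drug for either group; housing in flight and gravity differ together, so their effects cannot be told apart. The labels do not say that each library is a separate animal, and the p-values given here speak for these libraries alone, whose spread may be technical.

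Ribosome profiling digests the RNA that ribosomes do not cover and sequences the protected fragments, here 25 to 35 nt long. The fragments of a translated mRNA lie in its exons and, where they span a splice junction, join neighbouring exons. RNase also cuts the RNA of the ribosome itself, and pieces of ribosomal RNA are a common content of such libraries. Ribosomal RNA of the cytoplasm is made of 18S, 5.8S and 28S RNA, cut from a single precursor, and of 5S RNA, which has genes of its own. Copies and remnants of these sequences lie scattered over the genome, in introns and untranslated exons too.

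Reads were concentrated in few rows. Over the 6 libraries, 4 rows held 50% of the exon reads and 7 rows held 50% of the intron reads, while the median row with any read had 78 exon reads or 6 intron reads. Libraries held 2212473 to 3196070 exon reads and 4228102 to 6423698 intron reads, so introns took 63.6% to 68.7% of the gene reads. The table counts every read of a row without annotated exons as an intron read; the 17474 such rows held 8.48% to 9.58% of the intron reads. The hearts carried all 11 cardiomyocyte markers listed, at a summed level of 46223 to 55635 CPM (normalised reads per 1000000) in PG and 58777 to 64025 CPM in GC. These ranges do not overlap, 2 of the 11 markers (Actc1 and Ckm) passed the test as lower in PG, and their part in the results for the pile-up rows was not tested. All markers of the other cell types listed had reads (5 endothelial, 6 fibroblast, 5 smooth muscle and pericyte, 5 macrophage and 5 erythroid genes). Of those tested Acta2 alone passed, lower in PG at -0.64 on the log2 scale. In the list of Acta2, Tagln stood at -0.15, while Rgs5 (0.43), Myh11 (0.20) and Pdgfrb (0.08) went the other way, none passing. Endothelial markers summed to 482 to 543 CPM in PG and 560 to 607 CPM in GC, where Fabp4 differed most (164 CPM in PG and 228 CPM in GC) and Pecam1, Cdh5, Kdr and Tie1 had log2 fold changes between -0.05 and 0.08. Fibroblast markers summed to 540 to 552 CPM in PG and 570 to 638 CPM in GC, with Col3a1 at -0.56 and Pdgfra at 0.33 on the log2 scale, neither passing. In such bulk libraries fewer cells of a type and less RNA per cell cannot be told apart.

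The 10 rows together held 46.3%, 45.6% and 52.5% of the exon reads in the PG libraries, against 50.2%, 48.7% and 48.1% in the GC libraries. The groups overlapped, with means of 48.1 ± 3.83% in PG and 49.0 ± 1.06% in GC (SD, n = 3 each). Of the intron reads, the same rows held 61.4%, 59.6% and 57.7% in PG, against 54.6%, 55.6% and 57.1% in GC. Here every PG library lay above every GC library, with means of 59.6 ± 1.85% in PG and 55.8 ± 1.23% in GC (SD, n = 3 each). That order rested on Itga9. The other 9 rows held 52.5%, 50.4% and 39.1% of all intron reads in PG, against 52.0%, 51.3% and 54.2% in GC, and the groups overlapped. Itga9 reads stay in the totals of these percentages, so its high share in PG lowers the values of the other rows there. Since these totals chose the rows, the joint shares are a description with no test. What was left for all other rows came to 1102906 to 1658570 exon reads per library.

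**Figure D1:**
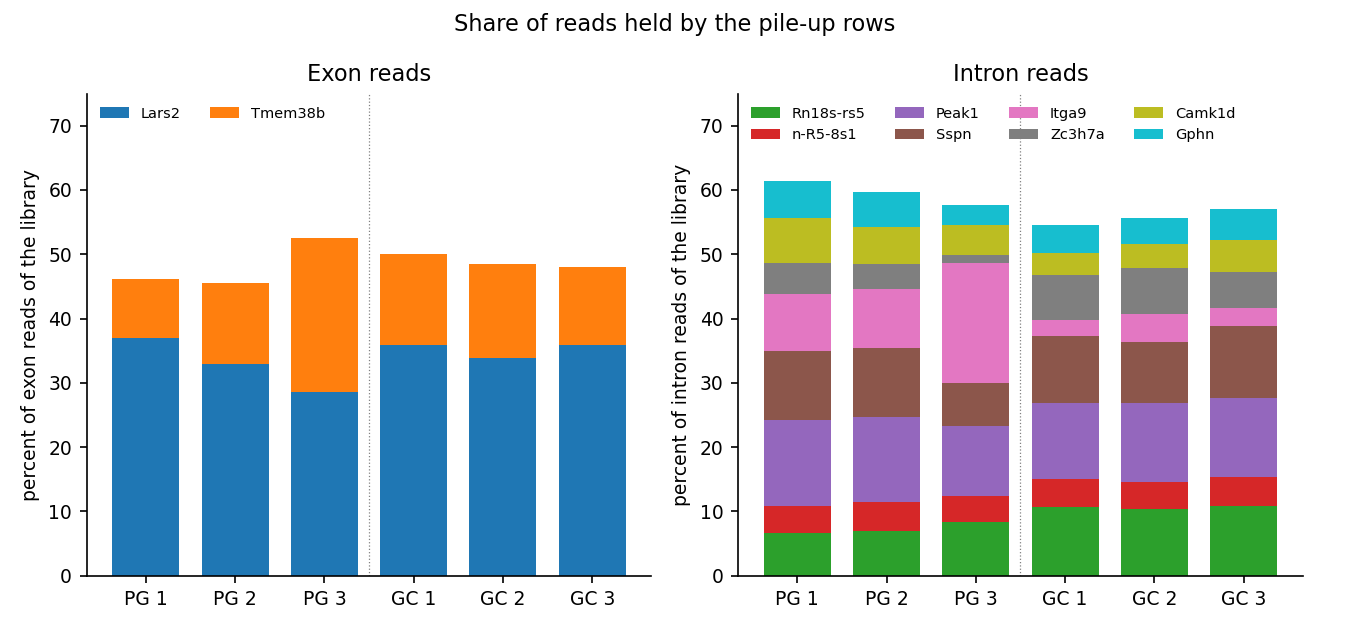
Stacked bars give the percent of each library's exon reads (left) and intron reads (right) held by the rows named in the legends, with the 3 PG libraries left of the 3 GC libraries; rows under 1% are not drawn. Lars2 and Tmem38b make up almost all of the exon part, and Tmem38b (9.16% to 23.9%) and Itga9 (2.58% to 18.6%) span the most percentage points between libraries.

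The rows are not a strict top list, and the edge differs between the 2 kinds of read. Among exon reads, Lars2 held 34.1% and Tmem38b 14.2%, and the next row, the cardiac myosin gene Myh6, held 1.41%, followed by Atp2a2 (1.07%), Actc1 (0.911%), mt-Co1 (0.796%) and Tnni3 (0.563%), all genes of contraction, calcium handling or respiration. Among intron reads the 8 other members held ranks 1 to 4 and 6 to 9. Just inside lay Gphn at 4.69% and n-R5-8s1 at 4.34%, and just outside lay Cmss1 at 3.95% and Arhgap21 at 3.88%. Fcgr3, with 6.26% of the intron reads and rank 5, is no member although it exceeds Zc3h7a (5.01%), Camk1d (4.95%), Gphn and n-R5-8s1. The mitochondrial row mt-Rnr2 held 2.18%.

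Lars2 encodes the leucyl-tRNA synthetase of mitochondria, which loads leucine onto tRNA for the translation of the mitochondrial genome. The row lies on chromosome 9 at chr9:123366927-123462666 (GRCm38, as deposited, counted from 1) with 35 annotated exons and 7828 bases of exon. It received 1014583, 967109 and 690661 exon reads in the PG libraries, against 794689, 793575 and 1145392 in the GC libraries. As shares of exon reads these were 37.0%, 32.9% and 28.6% in PG, against 35.9%, 33.8% and 35.8% in GC.

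Only 71 of the 5406009 exon reads of Lars2 spanned an exon junction, 0.00131% of them. In 1211 other rows with at least 1000 exon reads and 2 exons, the median was 13.9%, with 1.88% and 33.1% at the 5th and 95th percentiles, and pooled over all rows but the 10 it was 15.4%. Only 4 of those rows had a smaller share, each with 0 junction reads: Gm20732, Snhg5, Gm14236 and Neat1, which were named after their values were seen. Neat1 and Snhg5 are long noncoding RNA genes. Lars2 introns held 14 reads in all libraries together. Of the exon reads, 76.0% were counted as unique, below the median of 99.8% in those 1211 rows, of which 263 had a lower share. The unique share was 76.6%, 76.6% and 82.0% in PG libraries, against 72.6%, 75.3% and 74.0% in GC libraries, and the groups did not overlap.

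Set beside the other synthetases, Lars2 lay in the middle by junction reads and first by exon reads. Junction reads of Lars2 came to 9.07 per kilobase of exon over the 6 libraries, rank 11 among 20 aminoacyl-tRNA synthetase genes, below Gars (64.4), Kars (42.9), Lars (37.6, the cytoplasmic leucyl enzyme) and Iars2 (35.0). By all exon reads Lars2 had 690599 per kilobase, rank 1, against 299 for Kars, rank 2. Per library, Lars2 had 14, 16 and 11 junction reads in PG, against 7, 17 and 6 in GC, and the groups overlapped.

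Tmem38b encodes TRIC-B, a potassium channel of the endoplasmic reticulum that offsets the charge moved by calcium release; its relative Tmem38a (TRIC-A) is the form known from striated muscle. The row lies at chr4:53826045-53862019 with 14 exons and 3807 bases of exon. It received 251034, 369424 and 577373 exon reads in PG, against 312270, 346433 and 387511 in GC. The PG libraries held both the lowest and the highest share of exon reads, 9.16% in replicate 1 and 23.9% in replicate 3, with 12.6% in replicate 2, against 14.1%, 14.8% and 12.1% in GC.

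Almost no Tmem38b read was unique: 0.268% of 2244045, a share that only 7 of the 1211 other rows undercut. Junction reads numbered 22, or 0.000980%, and intron reads 11. Per kilobase of exon, Tmem38b had 5.78 junction reads and Tmem38a 134, while by all exon reads Tmem38b had 589452 and Tmem38a 1737. In the list of 10 counter-ion channel and calcium release genes, Tmem38b ranked 9 by junction reads per kilobase, ahead of Itpr2 alone, and Atp2a2, the calcium pump of the sarcoplasmic reticulum, ranked 1 with 5877 per kilobase.

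**Figure D2:**
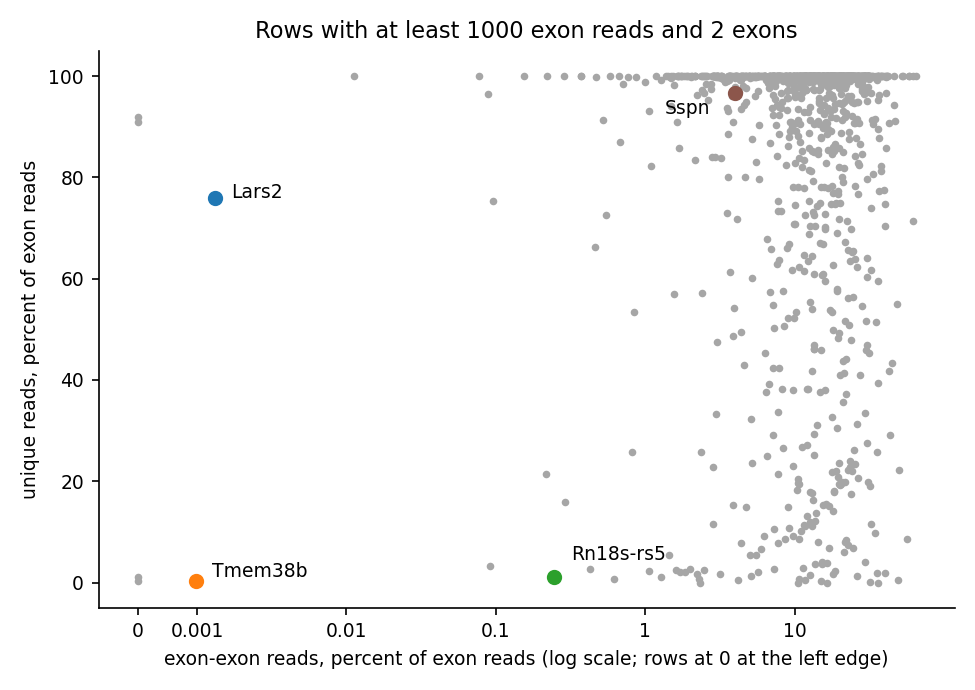
Each grey point is a row with at least 1000 exon reads and 2 exons, placed by its exon-exon (junction) reads in percent of exon reads on a log scale and by its unique reads in percent of exon reads, over all 6 libraries. Lars2 (0.00131%, 76.0%) and Tmem38b (0.000980%, 0.268%) stand to the left of all rows that have any junction read, Rn18s-rs5 (0.246%, 1.08%) is at the bottom, and Sspn (4.00%, 96.6%) lies among the other rows.

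Tmem38b was high and low in the same libraries as the 5 most read rows named for 5S ribosomal RNA, those with at least 1000 reads. The row n-R5s195, a 5S-named row on chromosome 3, received 1805, 2583 and 3916 reads in PG, against 2237, 2458 and 2803 in GC. For each of its reads Tmem38b had 139, 143 and 147 in PG, against 140, 141 and 138 in GC, a coefficient of variation (CV) of 2.41% over the 6 libraries. The ratio was set, after the values had been seen, against each of 1420 rows with at least 1000 gene reads, where the median CV was 43.6%. The 4 steadiest ratios were those to n-R5s195, n-R5s5 (2.80%), n-R5s2 (7.10%) and n-R5s194 (7.20%), all 5S-named, and n-R5s71 stood at 7.65%. The other 3 rows with 5S names and at least 100 reads did not keep such a ratio: n-R5s28 (126 reads) had a CV of 32.4%, n-R5s156 (445 reads) of 52.0% and n-R5s193 (182 reads) of 53.8%. The same ratio to n-R5-8s1, a 5.8S-named row, had a CV of 45.0%. Reads of the 5 most read 5S-named rows were 99.6% to 100% unique, against 0.268% of the exon reads of Tmem38b. These rows share libraries and depth with Tmem38b, and 6 libraries are the only points.

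The span of Tmem38b also holds the annotated row n-R5s185 at chr4:53860652-53860770, 119 bases long, ending 1249 bases before the end of Tmem38b, with the RefSeq biotype rRNA. It is listed at 0 reads, and so is every other row without exons found within the span of a member. Gm42418, for example, covers 1831 bases within the span of Rn18s-rs5 and is also listed at 0 reads. A 0 for such a row therefore does not tell whether reads lie there. The row n-R5s185 is 1 of 180 rows with 5S names, of which 31 had any read. The table gives a single count per row, so where in Tmem38b its reads lie is not known, and whether they are 5S fragments was not tested.

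**Figure D3:**
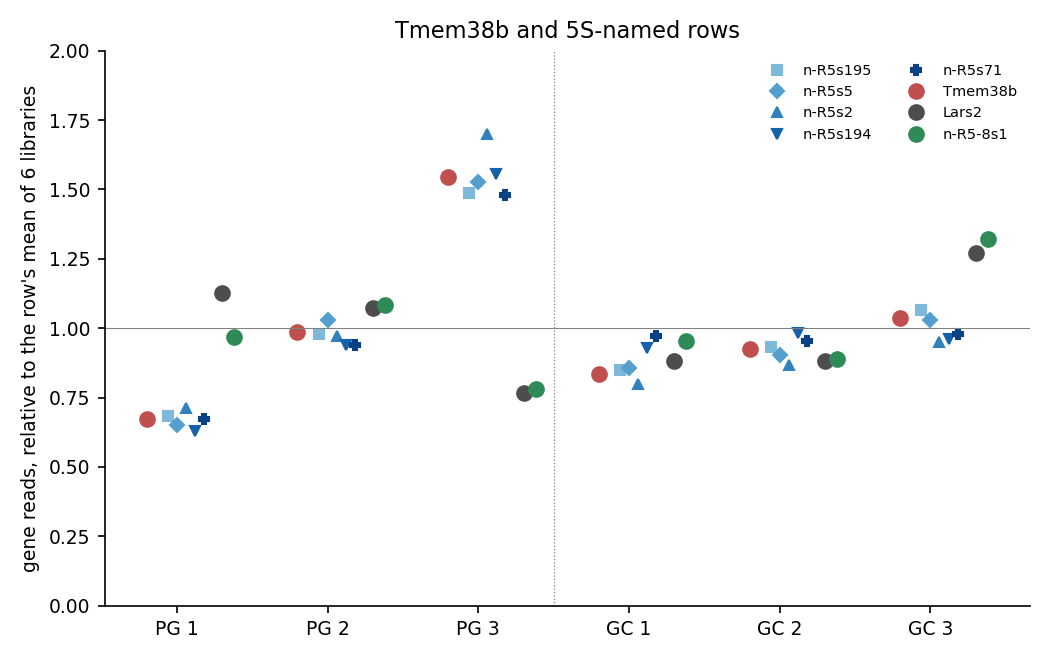
Gene reads of each row relative to the mean of that row over the 6 libraries (vertical axis, unitless), with PG libraries on the left and GC libraries on the right. Tmem38b moves with the 5 rows of 5S names that have at least 1000 reads, low in PG replicate 1 and high in PG replicate 3, while Lars2 and n-R5-8s1 are low in PG replicate 3.

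Rn18s-rs5 is named for its relation to 18S ribosomal RNA and has the RefSeq biotype pseudogene. It spans 2475 bases at chr17:39846353-39848827, with 4 exons that make up 714 bases. Its intron reads were 326463, 362722 and 352756 in PG, against 518236, 462572 and 694371 in GC, or 6.58%, 6.94% and 8.34% of intron reads in PG, against 10.7%, 10.3% and 10.8% in GC. Every PG library was lower than every GC library. Over all libraries 37.4% of its 2717120 intron reads were unique, against 1.08% of its 12991 exon reads. Its exons held 0.0820% of all exon reads, rank 69.

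The row n-R5-8s1 is named for 5.8S ribosomal RNA. It is 148 bases long on chromosome 18 and has no annotated exon, so its 1309221 reads, all counted as unique, are entered as intron reads. The deposited RPKM of 148250 to 169090 nevertheless matches these reads over those bases. It took 4.26%, 4.53% and 4.03% of intron reads in PG, against 4.30%, 4.33% and 4.48% in GC, the narrowest range among the members (1.12 times from the lowest to the highest library). The groups overlapped. Lars2 had 4.80, 4.08 and 4.05 reads for each n-R5-8s1 read in PG, against 3.81, 4.09 and 3.98 in GC (CV 8.26%), and Peak1 had 3.15, 2.93 and 2.70 in PG, against 2.76, 2.82 and 2.76 in GC (CV 5.86%). Rows with no ribosomal name were steadier over the same 1420 rows: the lowest CV was 1.65% for Lars2 (to Twf2) and 2.44% for Peak1 (to Aldh4a1), with medians over all rows of 15.5% and 16.0%.

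The list of structural RNA rows to which these 2 belong holds 191 rows, of which 41 had a read and 17 had at least 100. Behind Rn18s-rs5 and n-R5-8s1 came the mitochondrial large ribosomal RNA mt-Rnr2 with 659117 reads, n-R5s194 with 147426 and the mitochondrial small ribosomal RNA mt-Rnr1 with 118559. The labels say that mitochondria were spun out of the extracts before digestion.

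The other 6 rows are protein-coding genes whose reads lie almost wholly in introns. In the 1211 reference rows the intron share of gene reads had a median of 0.946%, and in these 6 it was at least 99.9%. The reference rows were picked for at least 1000 exon reads and these 6 for intron totals, so both selections favour this contrast. The exon reads of these 6 genes ranged from 76 to 1927 over all libraries together, ranks 594 to 8470 among the rows.

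Peak1 encodes a pseudokinase that acts as a scaffold in signalling at the cytoskeleton. It had the most intron reads of all rows, 3736848, at 666450, 694250 and 459329 in PG, against 575358, 546859 and 794602 in GC. Only 0.440% of them were unique, while 81.3% of its 519 exon reads were. Its share of intron reads, 10.9% to 13.4%, varied little between libraries.

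Sspn encodes sarcospan, a membrane protein of the dystrophin-glycoprotein complex that ties the muscle cytoskeleton to the matrix. Its intron reads were 527567, 557273 and 284486 in PG, against 500890, 427315 and 720798 in GC, with 0.376% unique. PG replicate 3 was lowest, also as a share (6.73%, against 9.53% to 11.2% in the other 5 libraries). In the exons of Sspn 96.6% of 1927 reads were unique and 4.00% spanned a junction. Per kilobase it ranked 7 by junction reads in the list of 14 genes of that complex.

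Itga9 encodes the alpha 9 subunit of integrins, receptors for matrix proteins. It had 440950, 481606 and 786740 intron reads in PG, against 124973, 194680 and 181467 in GC, and no PG library came near a GC library. Of these reads 87.8% were unique, against under 1% in Peak1 and Sspn. Its 654 exon reads held 105 junction reads, or 16.1%, above the median of the reference rows. Of the exon reads of Itga9 48.6% were unique, below the median of 99.8% in the reference rows.

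Zc3h7a encodes a zinc finger protein that, in human cells, was found to bind microRNA precursors. Its intron reads were 239011, 202304 and 54639 in PG, against 336365, 323037 and 357438 in GC, with 1.05% unique. PG replicate 3 again stood apart, here on the low side. The span holds Gm24145, a row of 163 bases with the RefSeq biotype snRNA that is listed at 0 reads. As for n-R5s185, that 0 does not tell whether reads lie there.

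Camk1d encodes a kinase activated by calcium and calmodulin, and Gphn encodes gephyrin, which anchors receptors at inhibitory synapses and makes the molybdenum cofactor. Camk1d had 348028, 303651 and 194618 intron reads in PG, against 165835, 162572 and 317391 in GC, with 6.11% unique. Gphn had 286092, 279778 and 137086 in PG, against 216116, 183279 and 311545 in GC, with 37.3% unique. Both rows overlapped between the groups. All exon reads of Camk1d (76) and Gphn (195) were unique, and 13.2% and 32.3% of them spanned a junction.

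The unique share of intron reads therefore ran from 0.376% in Sspn to 100% in n-R5-8s1 among the 8 intron members. In 95 other rows with at least 1000 intron reads and 2 exons it ran from 0.0132% to 100% between the 5th and 95th percentiles, with a median of 54.9%. Taken over the libraries as a description (Pearson r of log2 shares, n = 6, with shared depth), Gphn and Peak1 moved most alike among these members (r = 0.96) and Itga9 and Zc3h7a most opposite (r = -0.86).

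PG was then compared with GC in exon reads with edgeR's quasi-likelihood test on 9124 rows, with Benjamini-Hochberg adjusted p under 0.05 as the threshold. Of all rows tested, 0.581% passed, 0.252% higher in PG and 0.329% lower, and in 16.3% the groups did not overlap (8.06% with PG above and 8.25% with PG below). Of the 9 members tested, 1 passed (lower in PG) and 3 had groups that did not overlap (Peak1 with PG above, Lars2 and Rn18s-rs5 with PG below); n-R5-8s1 has no exon reads and was not tested. The median log2 fold change was -0.13 over these 9 and -0.00 over all rows tested.

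The member that passed was Rn18s-rs5, through the small part of its reads that fall in exons. It had 589, 500 and 647 CPM in PG, against 1022, 976 and 1214 CPM in GC, so all PG libraries were lower. The means were 579 ± 73.9 CPM in PG and 1071 ± 126 CPM in GC (SD, n = 3 each), a log2 fold change of -0.89 ± 0.13 (SE) with an edgeR adjusted p of 0.00048. On unique exon reads, 140 in all libraries together, the log2 fold change was -0.73 with an edgeR adjusted p of 0.525, and on all gene reads it was -0.75 with an edgeR adjusted p of 0.192.

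Lars2 did not pass, although every PG library was lower after normalisation. Its values were 337531, 307849 and 324337 CPM in PG, against 382795, 345381 and 355942 CPM in GC, a log2 fold change of -0.16 ± 0.11 (SE; edgeR adjusted p = 0.64). As plain shares of exon reads the Lars2 groups overlapped, and on unique exon reads the log2 fold change was -0.08.

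Tmem38b had 83514, 117595 and 271137 CPM in PG, against 150418, 150775 and 120423 CPM in GC. The groups overlapped and the log2 fold change was 0.16 ± 0.24 (SE; edgeR adjusted p = 0.878). A single library set its sign: without PG replicate 3 it was -0.48, with an edgeR adjusted p of 0.0808. On unique exon reads, the 0.268% noted above, it was -0.15.

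Exon reads of the 6 genes with intron pile-ups did not pass the test. Peak1 had 32.3, 34.7 and 48.8 CPM in PG, against 30.3, 27.9 and 25.5 CPM in GC, with all PG libraries higher and a log2 fold change of 0.46 ± 0.22 (SE; edgeR adjusted p = 0.456); it was 0.27 without PG replicate 3 and -0.18 on all gene reads, which include its introns. Itga9 had 34.6, 39.5 and 33.3 CPM in PG, against 52.0, 52.2 and 39.5 CPM in GC, with overlap and a log2 fold change of -0.41 ± 0.19 (SE; edgeR adjusted p = 0.459). The others had adjusted p-values of 0.561 (Zc3h7a), 0.913 (Sspn), 0.91 (Gphn) and 0.958 (Camk1d), with log2 fold changes of -0.75, 0.07, 0.20 and -0.13. Zc3h7a, Camk1d and Gphn rest on few reads, 140, 76 and 195. In the authors' deposited table, the FDR-corrected p-value of their own exon-level test was 1 for all 10 rows. The fold change of that test, signed as deposited, was largest for Zc3h7a (-1.65), with -1.58 for Rn18s-rs5 and 1.56 for Peak1. For Tmem38b it was -1.10, opposite in sign to the edgeR value.

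The lists of genes around these proteins, which include the members themselves, gave no call in exon reads with edgeR. None passed of the 19 aminoacyl-tRNA synthetases tested, of the 10 counter-ion channel and calcium release genes, of 11 genes of the dystrophin complex, of 11 integrin subunits, of 7 calmodulin-dependent kinases, of 7 molybdenum cofactor genes or of the 3 rows in the list of Peak1 and Zc3h7a relatives. Median log2 fold changes ran from -0.13 in the kinases to 0.20 in the cofactor genes. These medians are the values of the members Camk1d and Gphn themselves. An unadjusted edgeR p under 0.05 was found in 13 of the 68 genes, Peak1 and Itga9 among them, against 953 of all 9124 rows. With DESeq2 1 of the 68, Tmem38a, passed. Tmem38a had a log2 fold change of -0.36 ± 0.12 (SE; edgeR adjusted p = 0.24), and Itgb1, the common beta subunit with which alpha 9 pairs, had 0.01 ± 0.13 (SE; edgeR adjusted p = 0.987).

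**Figure D4:**
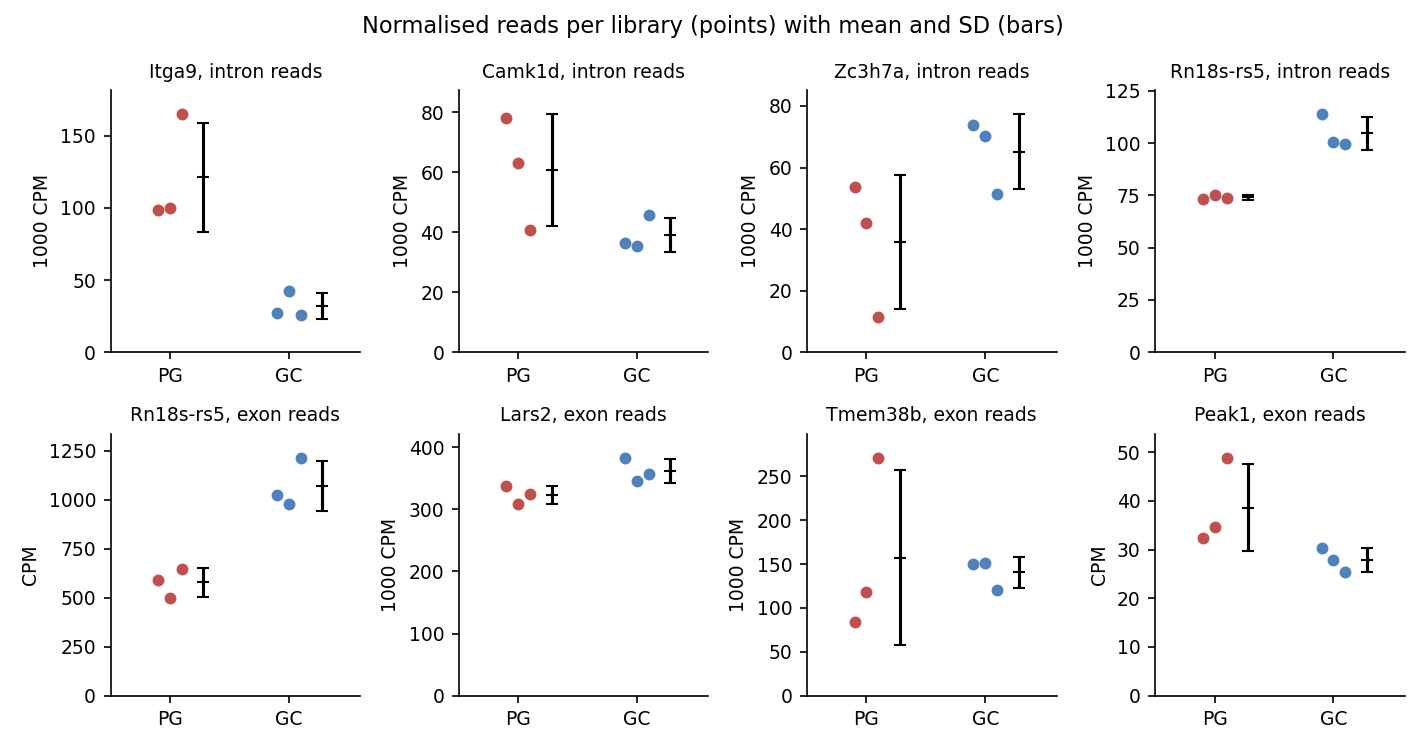
Points are libraries, in CPM or in units of 1000 CPM with edgeR's TMM factors, PG left of GC, and the bars beside them give mean ± SD (n = 3 each). Itga9 intron reads (98775 to 164959 in PG, 26079 to 42392 in GC) and Rn18s-rs5 exon reads (500 to 647 in PG, 976 to 1214 in GC) separate the groups and passed the test; Rn18s-rs5 intron reads, Lars2 and Peak1 separate them and did not pass.

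Intron reads were compared in the same way on 1177 rows. Of these, 2.63% passed, 0.425% higher in PG and 2.21% lower, in 20.3% the groups did not overlap (6.97% with PG above and 13.3% with PG below), and the median log2 fold change over all rows tested was -0.12. Of the 8 members tested 1 passed (higher in PG) and 2 had groups that did not overlap (Itga9 with PG above, Rn18s-rs5 with PG below), with a median of 0.07; Lars2 and Tmem38b had too few intron reads to be tested.

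The row that passed was Itga9. Its place among the 10 rows depends on PG: its mean share of intron reads was 12.2% in PG, rank 2 of all rows, and 3.25% in GC, rank 10, below Cmss1 (4.96% in GC), which is no member. It had 98775, 100141 and 164959 CPM in PG, against 27443, 42392 and 26079 CPM in GC, with every PG library far above every GC library. The means were 121292 ± 37823 CPM in PG and 31971 ± 9050 CPM in GC (SD, n = 3 each), 3.79-fold higher in PG, and edgeR gave a log2 fold change of 1.92 ± 0.32 (SE; adjusted p = 0.00353). Itga9 passed under each of the 12 alternatives run on intron reads, with log2 fold changes of 1.70 to 2.48 and adjusted p from 3.7e-05 (DESeq2) to 0.0334 (edgeR with a replicate block). Counted as gene reads, exons and introns together, the log2 fold change was 1.75 with an edgeR adjusted p of 0.0238. The intron totals that chose Itga9 were high through PG and are the counts tested here. All alternatives reuse the same 6 libraries. The test and its alternatives are therefore a description and give no independent support. Whether the intron and exon differences of Itga9, which have opposite signs, differ from each other was not tested.

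The difference lay in the unique reads of Itga9. These numbered 395909, 438748 and 767513 in PG, against 82049, 143088 and 113491 in GC, 5.19 times more in PG per 1000000 intron reads, with no overlap. The reads that were not unique numbered 45041, 42858 and 19227 in PG, against 42924, 51592 and 67976 in GC, 0.705 times the GC mean on that scale, with overlap. The unique share of the row was thus 89.8%, 91.1% and 97.6% in PG, against 65.7%, 73.5% and 62.5% in GC.

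Rn18s-rs5 was lower in PG in intron reads too and did not pass. It had 73129, 75422 and 73964 CPM in PG, against 113801, 100725 and 99788 CPM in GC, without overlap, and a log2 fold change of -0.50 ± 0.25 (SE; edgeR adjusted p = 0.394). That value was -0.15 without GC replicate 1, -0.28 without PG replicate 2 and -0.32 without PG replicate 1. Its unique reads came to 0.71 times and its other reads to 0.674 times the GC mean per 1000000 intron reads. The 2 groups of Rn18s-rs5 did not overlap in either.

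Zc3h7a had 53540, 42066 and 11456 CPM in PG, against 73864, 70342 and 51368 CPM in GC, with PG replicate 1 above GC replicate 3. Its log2 fold change was -0.87 ± 0.44 (SE; edgeR adjusted p = 0.394), and it was -0.39 without PG replicate 3, -0.45 without GC replicate 1 and -0.12 on unique intron reads. Per 1000000 intron reads its unique reads stood at 0.824 times and its other reads at 0.504 times the GC mean, both without overlap, and these ratios were not tested.

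Camk1d had 77960, 63139 and 40806 CPM in PG, against 36416, 35400 and 45612 CPM in GC, and a log2 fold change of 0.63 ± 0.31 (SE; edgeR adjusted p = 0.379). PG replicate 3 lay within the GC range. For Gphn, Peak1, n-R5-8s1 and Sspn the log2 fold changes were 0.19, 0.12, 0.03 and -0.06, with adjusted p-values of 0.867, 0.899, 0.98 and 0.952, and all 4 rows overlapped. In each of the 4 the lowest library was PG replicate 3, and without it the values were 0.53, 0.35, 0.22 and 0.25, none passing. Without GC replicate 1 they were 0.55, 0.45, 0.37 and 0.30.

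**Figure D5:**
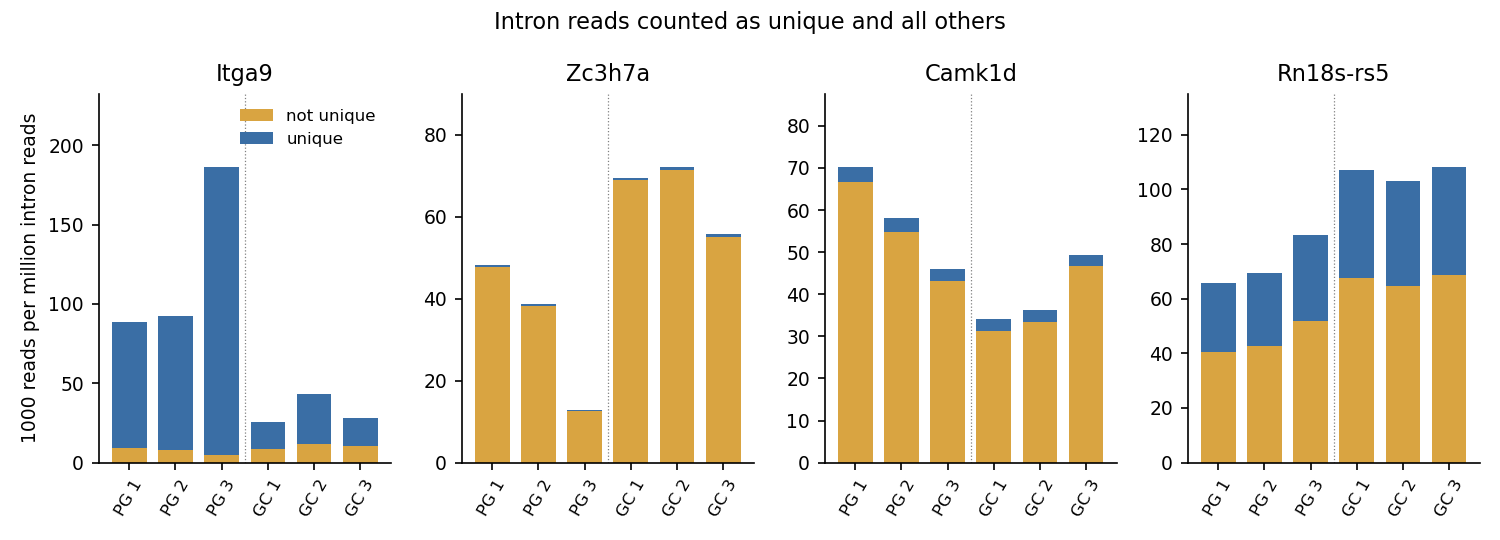
Bars give intron reads per 1000000 intron reads of the library, in units of 1000, split into reads counted as unique (blue) and all others (yellow), PG libraries left of GC libraries. Itga9 is mostly unique and high in PG, Zc3h7a and Camk1d are mostly not unique, and Rn18s-rs5 holds both kinds and is low in PG in both.

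None of the 17 structural RNA rows tested on intron reads passed with edgeR or DESeq2, Rn18s-rs5 and n-R5-8s1 included; 6 had an unadjusted edgeR p under 0.05, against 176 of all 1177 rows, and their median log2 fold change was -0.05. The lowest values were those of Rn7s2 (-1.25), n-R5s156 (-1.03), n-R5s193 (-0.92) and Rn7sk (-0.91). The highest were those of mt-Rnr2 and n-R5s2 (0.52). The row mt-Rnr2 stood at 0.61 ± 0.30 (SE; edgeR adjusted p = 0.394) and n-R5s194 at 0.25 ± 0.37 (SE; edgeR adjusted p = 0.841). Camk1d had 2.07 to 2.48 reads for each mt-Rnr2 read (CV 6.78%), its steadiest ratio within that list, while over the 1420 rows Pum2 (5.19%) and Clic5 (5.53%) were steadier.

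Among rows with at least 10 CPM on average, those most like 4 of the members were picked by the Pearson correlation of log2 CPM over the 6 libraries, which share depth and normalisation. Of 6305 rows, Lars2 was most like Eif4e3, a cap-binding protein gene (r = 1.00), Twf2, which encodes an actin-binding twinfilin (r = 0.99), and Rilpl1 (r = 0.99), and Tmem38b was most like Polr1c (r = 0.98), Col6a3 (r = 0.98) and Sf3b3 (r = 0.98). Polr1c encodes a subunit shared by RNA polymerases I and III, Col6a3 a chain of collagen VI and Sf3b3 a splicing factor. The likeness of Polr1c rests on few reads, 174 over the 6 libraries. In intron reads, of 254 rows, Rn18s-rs5 was most like Ank2 (r = 0.99), Fam163b (r = 0.99) and Galntl6 (r = 0.99), and Itga9 most like Gm14634 (r = 1.00), Myo3a (r = 0.98) and the mitochondrial alanine tRNA mt-Ta (r = 0.98). All these r values are the highest among many rows over 6 points, and that choice alone makes them high.

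These likenesses hide unequal sizes. Gm14634, a row on the X chromosome, had 1148, 1226 and 1951 intron reads in PG, against 236, 376 and 358 in GC, almost all unique (a log2 fold change of 2.31 ± 0.37, SE; edgeR adjusted p = 0.00203). Of the 1420 rows with at least 1000 gene reads it also had the steadiest ratio to Itga9 (CV 15.2%). Ank2, which encodes ankyrin-B, had 75, 79 and 91 intron reads in PG, against 2440, 699 and 896 in GC, a log2 fold change of -3.96 ± 0.54 (SE; edgeR adjusted p = 0.00079), far more than the -0.50 of Rn18s-rs5. Gm14634 and Ank2 were picked for moving with Itga9 and Rn18s-rs5 over the same libraries, and the groups of both members do not overlap. Their fold changes and p-values are therefore a description and give no independent support.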

How the data were processed

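Ribosome-protected fragments of 6 mouse heart libraries (3 PG, 3 GC) were read from 1 deposited table with 161 columns. Total and unique exon, intron, exon-exon and gene reads are whole-number counts and RPKM values were given as well, per the file headers; the deposited RPKM were used to recover the mapped reads and to check n-R5-8s1. The authors' deposited EDGE test holds a p-value, an FDR-corrected one and a fold change with a sign per row, and other deposited columns used are row annotation. The aligner, the counter, its strand setting and what it calls unique are not given in these sources; the submitters' processing notes name GRCm38 and mm10. Start positions were shifted to count from 1. Another 77 columns of single libraries stayed unused.

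Depth was 2212473 to 3196070 exon reads per library; 3 libraries a group limit the precision. Counts as deposited were tested with edgeR 4.0.16 (R 4.3.3; TMM, glmQLFit, glmQLFTest, only group in the model) after filterByExpr at a minimum count of 10, separately for exon and intron reads, and with DESeq2 1.42.0 as an alternative. Benjamini-Hochberg adjustment ran over all rows tested; a positive log2 fold change stands for more reads in PG. The code was tested on simulated data. The permutation test planned for the joint shares is not reported, because totals chose the rows. Replicates within a group differed by far more than sampling noise, with a chi-square per degree of freedom of at least 4.12.

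All 10 members are named, with the 5 next rows by exon and by intron reads, the 3 rows most alike for 4 members (log2 CPM, prior count 2), and the called or most read genes of each list, except items that are not reported here. Kars, Lars, Tmem38a, Itpr2, Gm24145, Gm42418, Tagln, Myh11 and Pdgfrb were named after their values were seen. So were the rows named by a ratio or an extreme value and those without junction reads. Members and lists were chosen with earlier results of these data known. The comparison of ratios over 1420 rows, the split into unique and other reads, exon-exon reads as a setting, the joint share without Itga9, and library size alone with the members out were added after the data had been seen. RefSeq biotypes come from GRCm38.p6. No sequence is printed.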

Additional observations from a re-analysis of the deposited data

How the results depend on the processing

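The count of rows called in exon reads was 53. It was 127 with DESeq2, 181 without the filter on low counts, 90 on unique exon reads and 13 on exon-exon reads (of 2839 rows tested; chosen after seeing the data), and 19 to 102 when each library was left out in turn, the lowest without GC replicate 2 and the highest without GC replicate 3, and 25 or 26 without the first or the second PG library. With library size alone it was 41, and the share called higher in PG was 61.0%, against 43.4% with TMM; total gene reads gave 45 calls (28.9% higher). Taking the 10 rows out of the library sizes left it at 53, and doing so with library size alone gave 66, with 51.5% higher (chosen after seeing the data). In intron reads the count was 31, with 73 without the filter and 15 to 62 when each library was left out, the highest without GC replicate 3 and 15 or 16 without any single PG library. DESeq2 gave 42 intron calls with 26.2% higher, against 16.1% in edgeR. The median log2 fold change over all intron rows was -0.12 with TMM, -0.02 with DESeq2 and -0.17 with library size alone.

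With the replicate number as a block the exon count was 22 and the intron count 22. Same-numbered libraries did not deviate together (correlations of -0.01, -0.03 and -0.01 in exon reads and -0.08, -0.08 and -0.15 in intron reads). With 3 libraries a group, these correlations cannot tell whether same-numbered libraries were handled together. The joint share of intron reads was 3.82 percentage points higher in PG, 12.3 points on unique reads, and 2.91 to 4.76 points with each library left out. Intron totals chose these rows, Itga9 through PG, so this difference and its range are a description. Without Itga9 the PG minus GC difference in intron reads was -5.16 points. The joint share of exon reads differed by -0.832 points, and by -3.03 to 0.432 points with each library left out. Of 213 values of single members under the alternatives, 210 kept their side of the threshold, and no value that passed in the comparisons above changed sign. For a further 4, the exon reads of Peak1, Zc3h7a, Camk1d and Gphn in DESeq2, no adjusted p was given. The exceptions were Rn18s-rs5 in exon reads (-0.73 on unique reads and -0.75 on gene reads, neither passing) and Itga9, whose exon value of -0.41 became 1.75 on gene reads, which include its introns. Only Rn18s-rs5 in exon reads and Itga9 in intron reads had passed, so most of the 210 were values that passed in neither setting. Values that did not pass could change sign, as in the exon reads of Lars2 (-0.20 to 0.26) and Tmem38b (-0.48 to 0.46). The causes of these differences were not tested, apart from the reads that each setting adds or removes. Few reads stand behind the exon values of Zc3h7a, Camk1d and Gphn (140, 76 and 195).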
